A study of Mus musculus with 16 samples.

Results

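The genes of the mitochondrial ribosomal proteins were followed across 4 groups of mouse livers from a study that set knockdown of ketohexokinase (KHK), the first enzyme of fructose breakdown, against inhibition of its kinase activity. Members were chosen by name, as every symbol made of Mrpl or Mrps, a number and at most one letter, which gave 78 of the 50559 genes listed. All 78 had counts and all passed the filter on low counts, as did 18335 genes in all. Of the 78, 51 code for proteins of the large subunit and 26 for proteins of the small subunit. The remaining member, Mrps36, was named as a small subunit protein but is known as a subunit of the 2-oxoglutarate dehydrogenase complex.

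Each group held 4 libraries, numbered as replicates in the labels, from male C57BL/6J mice that were 6 weeks of age when the diets began and were fed for 10 weeks, with the agents given over the last 4. The LFD group, called chow in the labels, received the low-fat diet, luciferase control siRNA at 10 mg/kg and methylcellulose by gavage. The HFD group received the high-fat diet with the same control siRNA and methylcellulose. The HFD + siRNA group received the high-fat diet, siRNA against Khk at 20 mg/kg and methylcellulose. The HFD + Inhib group received the high-fat diet, the control siRNA and the KHK inhibitor PF-06835919 at 15 mg/kg by gavage, 2 times daily. All siRNA doses were repeated at intervals of 2 weeks. The siRNA was delivered to hepatocytes, while the inhibitor was systemic, so the agents differ in the cells they reach as well as in how they act. Mice of the study received saline or insulin shortly before the livers were taken, and which library followed which was not given in the sources used here. Libraries held between 24317111 and 35820234 expected counts, and the 78 members took between 0.144% and 0.165% of them.

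Mitochondria carry their own ribosomes, which translate only the few membrane proteins of the respiratory chain and ATP synthase that mitochondrial DNA encodes. The ribosomal RNAs come from mitochondrial DNA, whereas every protein of this ribosome is coded in the nucleus, made in the cytoplasm and imported. Compared with bacterial ribosomes, these particles hold less RNA and more protein, with many proteins that bacteria lack, and a liver cell, rich in mitochondria, depends on them for oxidative phosphorylation. Of the 77 ribosomal members, 46 have a bacterial counterpart and 31 are specific to mitochondria.

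Khk itself was checked first. In CPM (read counts scaled to a common library total), Khk stood at 214, 233, 349 and 269 in the LFD libraries, at 251, 322, 233 and 251 in HFD, at 11.8, 9.14, 18.1 and 11.52 in HFD + siRNA, and at 112, 152, 94.6 and 120 in HFD + Inhib. All HFD + siRNA libraries were far below the others, and all HFD + Inhib libraries lay between them and the controls. The log2 fold change against HFD was -4.38 (SE 0.23, adjusted p = 1.88e-08) with siRNA and -1.14 (SE 0.20, adjusted p = 0.000752) with the inhibitor. Here and throughout, p values are from the quasi-likelihood test of edgeR and were adjusted by the Benjamini-Hochberg method over the 18335 genes tested, genes under 0.05 were counted as changed, and higher and lower refer to the first group of a pair.

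The liver label was compared with marker genes of liver cells. All 8 hepatocyte markers were tested, Alb (albumin) being the most abundant. Their summed level was 86413, 69218, 74697 and 69892 CPM in LFD, 71435, 56881, 69064 and 71447 in HFD, 73251, 72304, 70793 and 62733 in HFD + siRNA, and 43574, 42924, 44996 and 46310 in HFD + Inhib. Every HFD + Inhib library lay below every other library, with Alb making up most of the sum. Relative to HFD, Alb fell with the inhibitor by 0.77 on the log2 scale (SE 0.13, adjusted p = 0.000761), Ttr also fell, by 0.93 (SE 0.12, adjusted p = 5.55e-05), and the other 6 markers did not pass the test, with 2 of the 8, Cyp2e1 (0.26) and Tat (0.24), above 0. Counts are shares of a library, so a fall in abundant hepatocyte mRNAs and a rise of other genes can move together, and the part of these markers in the results below was not tested. Relative to HFD + siRNA, 1 hepatocyte marker was higher and 5 were lower with the inhibitor (median -0.46), and relative to LFD, 1 was higher and 6 were lower (median -0.59). Of all genes tested, 8.42% were lower with the inhibitor relative to HFD, 16.6% relative to HFD + siRNA and 18.2% relative to LFD. Of 6 Kupffer cell or macrophage markers, 0 were higher with the inhibitor, while 2 were lower relative to HFD, 4 relative to HFD + siRNA (median -0.55) and 3 relative to LFD. Of 5 endothelial markers, 0 were lower relative to HFD, 1 relative to HFD + siRNA and 3 relative to LFD. Of 5 stellate markers, 1 was lower with the inhibitor in each of these comparisons. Relative to LFD, 1 was higher in HFD and 1 in HFD + siRNA. Their summed level was 262, 309, 326 and 274 CPM in LFD and 415, 359, 334 and 344 in HFD. It was 333, 415, 408 and 391 CPM in HFD + siRNA and 271, 291, 273 and 258 in HFD + Inhib. HFD lay above LFD, and HFD + Inhib below HFD, without overlap. All 4 lymphocyte markers averaged under 1 CPM over the libraries, and 2 were lower with the inhibitor relative to HFD (median -1.40), 1 relative to HFD + siRNA and 2 relative to LFD. In HFD relative to LFD, 2 of the 8 hepatocyte markers were lower and 0 higher, where 8.80% of all genes tested were lower. With siRNA relative to HFD, 1 was higher and 0 lower, where 5.20% of all genes were higher. The part of all these markers in the results for the diet, the siRNA and the inhibitor was not tested. None of the 3 adipocyte markers passed the filter, and the pancreatic marker Prss1 was at 0 in every library. Another of the 3 pancreatic markers, the elastase gene Cela1, was the only one tested, and held 8.34, 8.42, 10.9 and 11.47 CPM in LFD, 19.1, 14.4, 12.8 and 15.9 in HFD, 17.0, 28.0, 25.9 and 26.7 in HFD + siRNA, and 6.96, 4.51, 4.53 and 4.95 in HFD + Inhib. Its libraries were lowest with the inhibitor and highest, but for one, with siRNA. The log2 fold changes were 0.66 by diet (SE 0.18, adjusted p = 0.0185), 0.65 with siRNA (SE 0.18, adjusted p = 0.0256) and -1.57 with the inhibitor (SE 0.19, adjusted p = 2.37e-05), and its part in the results below was not tested. The diet call was lost without LFD replicate 1 or HFD replicate 1, and the siRNA call under a GC and length correction and without HFD replicate 2, 3 or 4 or HFD + siRNA replicate 2, 3 or 4. In bulk tissue, fewer cells of a type and less RNA per cell cannot be told apart.

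Genes of mitochondrial ribosomal proteins are known to share sites for nuclear respiratory factor 1 (NRF1), ETS factors such as GABP, and YY1, so their promoters were read from RefSeq (build GRCm38.p6, from 250 bases before the start to 50 after). A promoter was found for 69 of the 78 members, in 75 windows, and each motif was searched as exact letters on both strands. The ETS letters CCGGAAG occurred in 34.7% of member windows and in 8.86% of the 32851 windows of all genes. GCGCATGCG, for NRF1, occurred in 9.33% against 1.75%, and AAGATGGCG, for YY1, in 10.7% against 1.403%. The E-box CACGTG was found in 9.33% against 7.15%, and the TATA letters TATAAA in 6.67% against 13.6%. The 7 member windows with an E-box belonged to 5 of the 69 members, Mrpl2 being counted more than once through overlapping windows. None of the 5 motifs was present in 31 of the 75 windows. These matches describe the letters only, and the binding of a factor was not measured.

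The 150 bases before the start are shown for 6 members of the comparisons below that carry such letters: Mrps26 and Mrpl52, both lower in HFD than in LFD, Mrpl27, higher in HFD + siRNA, Mrpl32, higher in HFD + Inhib, and the landmarks Mrpl58 and Mrps22. They are written 5′ to 3′ on the strand of the gene, and capitals mark the ETS letters or, in Mrpl32, the NRF1 letters, on either strand. Mrps26 lies on the plus strand at chr2:130563607-130563756, with its match beginning 14 bases before the start. The matches began 47 bases before the start in Mrpl52 (chr14:54426759-54426908, plus strand) and 55 in Mrpl27 (chr11:94653641-94653790, plus strand). Mrpl32 (chr13:14613038-14613187, minus strand) has overlapping matches on opposite strands at 87 and 86 bases and another at 23. In Mrpl58 (chr11:115403602-115403751, plus strand) and Mrps22 (chr9:98601680-98601829, minus strand) the distances were 17 and 11 bases.
Mrps26: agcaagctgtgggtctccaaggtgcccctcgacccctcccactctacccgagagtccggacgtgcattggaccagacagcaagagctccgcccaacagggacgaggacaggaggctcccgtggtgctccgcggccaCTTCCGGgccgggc
Mrpl52: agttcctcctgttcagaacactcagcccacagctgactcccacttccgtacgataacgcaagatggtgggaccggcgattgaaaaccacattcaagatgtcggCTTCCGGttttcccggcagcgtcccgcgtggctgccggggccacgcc
Mrpl27: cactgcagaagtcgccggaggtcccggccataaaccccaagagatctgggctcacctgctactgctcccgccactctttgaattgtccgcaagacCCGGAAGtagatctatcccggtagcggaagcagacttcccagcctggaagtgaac
Mrpl32: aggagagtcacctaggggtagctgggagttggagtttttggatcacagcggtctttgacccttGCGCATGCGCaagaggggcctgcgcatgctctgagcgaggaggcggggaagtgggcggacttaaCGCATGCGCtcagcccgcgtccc
Mrpl58: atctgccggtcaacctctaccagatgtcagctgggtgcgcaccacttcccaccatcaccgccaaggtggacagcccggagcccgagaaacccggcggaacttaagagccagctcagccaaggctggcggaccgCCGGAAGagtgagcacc
Mrps22: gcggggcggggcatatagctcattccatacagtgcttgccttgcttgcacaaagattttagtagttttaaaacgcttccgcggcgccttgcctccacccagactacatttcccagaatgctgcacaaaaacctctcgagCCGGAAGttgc

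Among members with a promoter, the letters were set beside the direction of change. ETS letters stood in 26 of the 69, in 6 of the 9 with a promoter that were lower in HFD than in LFD, in 6 of 9 that were higher in HFD + siRNA than in HFD, and in 8 of 21 that were higher in HFD + Inhib. NRF1 letters stood in 7 of the 69, and in 0, 0 and 4 of the same sets, and YY1 letters in 8 of the 69 and in 0, 1 and 2. These counts are small and overlap in their genes.

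Mitochondrial ribosomal protein genes were expressed above the typical gene and over a range of levels. Per kilobase of transcript, the mean level over the 16 libraries ran from 1.67 to 64.1 CPM. The median was 17.5, against 4.61 for the 15858 genes tested that had a transcript length. Mrps21 (64.1 CPM per kilobase), Mrpl14 (48.7), Mrpl30 (46.5), Mrpl12 (43.2) and Mrpl52 (41.3) were the highest, and Mrps26 (2.49), Mrpl19 (2.42) and Mrpl47 (1.67) the lowest. Mrpl12 belongs to the flexible stalk that recruits translation factors and is also known to bind the mitochondrial RNA polymerase. The median transcript length of the members was 1052 bases against 1933 for the same 15858 genes, and their median GC content was 50.5% against 50.4%.

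Summed over the 78 members, expression was lowest and least spread in HFD and higher in both treated groups. LFD libraries held 1687, 1415, 1638 and 1459 CPM, a mean of 1549.7 ± 133 (SD, n = 4). HFD libraries held 1429, 1380, 1394 and 1389 CPM (1398 ± 21.8). HFD + siRNA libraries held 1598, 1597, 1525 and 1562 CPM (1570.3 ± 34.6), and HFD + Inhib libraries 1725, 1773, 1551 and 1576 CPM (1656 ± 109). All libraries of both treated groups lay above all HFD libraries, whereas LFD replicate 2 lay below HFD replicate 1. These sums use TMM-scaled totals. On unscaled totals the means were 1508 ± 69.0 in LFD, 1487 ± 22.7 in HFD, 1548 ± 42.0 in HFD + siRNA and 1613 ± 39.4 with the inhibitor, so the log2 ratio of HFD to LFD went from -0.15 to -0.02, that of HFD + siRNA to HFD from 0.17 to 0.06, with overlapping libraries, and that of HFD + Inhib to HFD from 0.24 to 0.12, without overlap. The ratio of large to small subunit sums was close in all groups, at 2.24 ± 0.00618 in LFD, 2.25 ± 0.0442 in HFD, 2.21 ± 0.0477 in HFD + siRNA and 2.27 ± 0.0347 with the inhibitor.

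**Figure D1:**
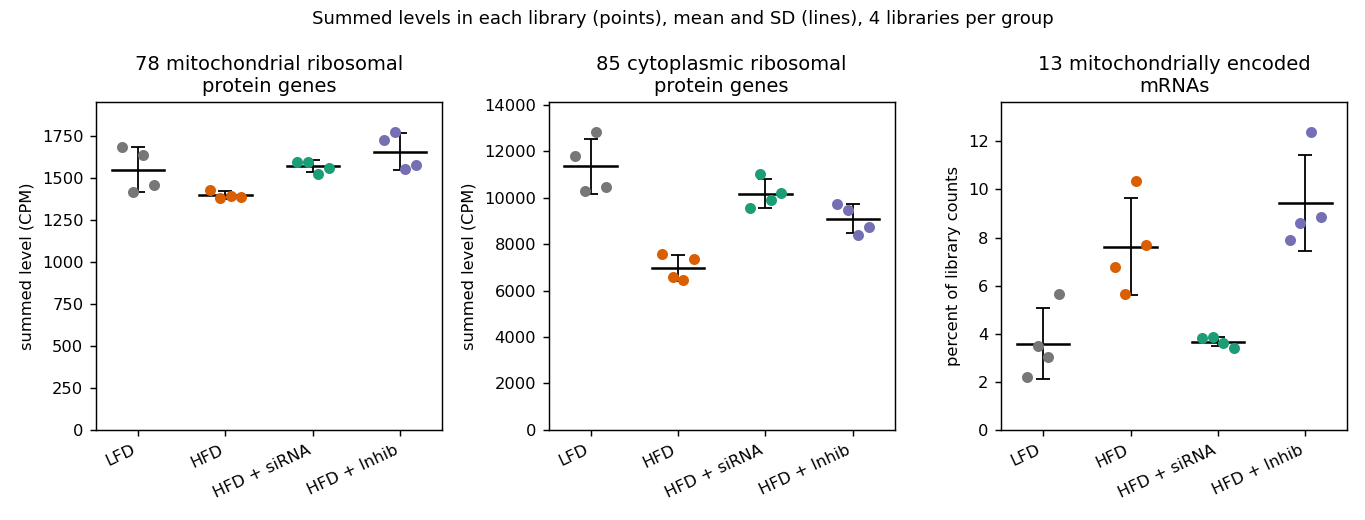
Summed level in each library of the 4 groups, as CPM for the mitochondrial ribosomal protein genes and for the cytoplasmic ribosomal protein genes, and as percent of counts for the mitochondrially encoded mRNAs. Points are libraries and bars are mean ± SD (n = 4). For the mitochondrial ribosomal proteins, both treated groups sit above the HFD libraries, which lie between 1380 and 1429 CPM.

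The high-fat diet was compared with the low-fat diet to see what the diet alone did. Of 78 members, 2 were higher and 11 lower in HFD than in LFD (2.56% and 14.1%), where 9.58% of all genes tested were higher and 8.80% lower. The median log2 fold change of the members was -0.13, against -0.01 for all genes, and 65 of 78 were below 0. The members that fell furthest with separate groups were Mrpl38, Mrpl52, Mrps33, Mrps26 and Mrpl2, and Mrpl50 rose.

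Mrpl38, a protein of the central protuberance of the large subunit, stood at 53.5, 39.7, 50.5 and 35.9 CPM in LFD and at 28.6, 28.5, 28.0 and 26.9 in HFD. The LFD libraries were spread, with replicates 1 and 3 high, but none reached down to the level of the HFD group. Expressed as log2, the change was -0.68 (SE 0.13, adjusted p = 0.00228). Mrpl52, whose promoter is shown above, had 24.5, 15.6, 26.2 and 18.7 CPM in LFD and 15.4, 13.7, 11.8 and 13.2 in HFD, again with LFD replicates 1 and 3 high and a narrow gap between the groups. The fall was -0.65 (SE 0.16, adjusted p = 0.0097). Mrps33, a small subunit protein, was at 7.09, 5.80, 5.67 and 7.42 CPM in LFD and at 3.88, 3.85, 4.55 and 4.85 in HFD, without overlap (log2 fold change -0.60, SE 0.13, adjusted p = 0.00642).

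Mrps26, a mitochondria-specific protein of the small subunit, had 13.2, 9.06, 14.99 and 10.6 CPM in LFD and 8.28, 8.12, 7.89 and 8.80 in HFD. The groups did not overlap, and the log2 fold change was -0.53 (SE 0.13, adjusted p = 0.0088). Mrpl2, which lies near the peptidyl transferase centre, had 32.2, 28.4, 33.2 and 25.9 CPM in LFD and 23.5, 24.2, 21.4 and 24.4 in HFD (-0.36, SE 0.09, adjusted p = 0.0107). In the other direction, Mrpl50 had 33.7, 33.7, 28.3 and 33.8 CPM in LFD and 40.3, 38.8, 42.6 and 41.1 in HFD, all HFD libraries being higher (0.33, SE 0.09, adjusted p = 0.0205). Mrpl1, the other member that rose (0.41, SE 0.13, adjusted p = 0.0336), had overlapping libraries, since LFD replicate 4 held 24.03 CPM beside a lowest HFD value of 23.9. The Mrpl1 call was lost in 5 of 8 fits that left out a library (LFD replicate 1 or 3, or HFD replicate 2, 3 or 4), in a fit of the compared groups alone, and with the GC and length correction (0.12).

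The number of members changed by diet depended on single libraries. The total of 13 was 5 without LFD replicate 3, 6 without HFD replicate 3, 7 without LFD replicate 1, HFD replicate 2 or HFD replicate 4, and 20 without LFD replicate 2. The 5 named members that fell stayed called in each of these 8 fits, whereas Mrpl50 was not called without LFD replicate 3 or HFD replicate 3. When a trend over GC and transcript length was removed from each library, 1 member was higher and 7 lower. Mrpl52 (-0.15), Mrpl2 (-0.21) and Mrpl50 (0.10) were then no longer past the threshold.

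Knockdown of Khk was compared with the HFD controls. In HFD + siRNA, 13 of 78 members were higher and 1 lower than in HFD (16.7% and 1.28%), against a background of 5.20% and 6.55%. The median was 0.19, against 0.02 for all genes, and 65 of 78 members were above 0. The largest rises were those of Mrpl54, Mrps33, Mrps26, Mrps28 and Mrpl4.

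Mrpl54, a large subunit protein, was at 7.42, 7.35, 8.31 and 6.57 CPM in HFD and at 13.1, 12.2, 12.4 and 12.6 in HFD + siRNA. The groups were far apart, with a log2 fold change of 0.76 (SE 0.14, adjusted p = 0.0031). Mrps33, at 3.88, 3.85, 4.55 and 4.85 CPM in HFD, stood at 6.96, 8.67, 6.28 and 6.94 in HFD + siRNA (0.75, SE 0.13, adjusted p = 0.00257). Mrps26 stood at 13.1, 12.5, 13.7 and 13.9 CPM with siRNA, every library above the HFD maximum of 8.80 (0.68, SE 0.13, adjusted p = 0.00331). Mrps33 and Mrps26 were thus among the members with lower values in HFD than in LFD and higher values with siRNA, and both comparisons share the HFD libraries.

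Mrps28, a small subunit protein, had 8.19, 8.60, 7.40 and 7.82 CPM in HFD and 13.9, 10.8, 12.8 and 11.1 in HFD + siRNA. No library overlapped, and the rise of 0.60 (SE 0.15, adjusted p = 0.0151) was no longer called without HFD replicate 3 or HFD + siRNA replicate 1. Mrpl4, part of the wall of the exit tunnel for new proteins, had 18.5, 18.4, 16.8 and 15.7 CPM in HFD and 26.4, 21.4, 27.8 and 26.3 in HFD + siRNA (0.55, SE 0.12, adjusted p = 0.00901). The only member that fell, Mrps9, a small subunit protein near the mRNA path, had 13.8, 11.51, 14.5 and 15.01 CPM in HFD and 11.8, 10.96, 11.4 and 9.87 in HFD + siRNA. HFD replicate 2 overlapped with the treated libraries (-0.31, SE 0.09, adjusted p = 0.0344). This call was lost with the replicate block and with no filter. It was also lost without HFD replicate 1, 3 or 4 or HFD + siRNA replicate 4.

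In this comparison too the count moved with single libraries. The total of 14 was 6 without HFD replicate 3 or HFD + siRNA replicate 4, 7 without HFD replicate 4, and 9 without HFD replicate 2 or HFD + siRNA replicate 1, 2 or 3. With the GC and length correction, 8 were higher and 1 lower and the median was 0.10; Mrpl54, Mrps33, Mrps26, Mrps28 and Mrpl4 all stayed past the threshold.

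Inhibition of KHK gave the most called members among the comparisons made with HFD, all of them higher. In HFD + Inhib, 25 of 78 members were higher and 0 lower than in HFD (32.1% and 0%), against a background of 9.80% and 8.42%. At an unadjusted p under 0.05, edgeR gave 41 higher and 0 lower, and DESeq2 gave 28 and 0 at its adjusted threshold. The median was 0.24, against 0.00 for all genes, and 71 of 78 members were above 0. Mrpl45, Mrpl54, Mrps33, Mrpl42 and Mrps18b rose furthest.

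Mrpl45, which sits at the exit of the tunnel and faces the inner membrane where new proteins are inserted, had 15.7, 17.5, 15.8 and 16.9 CPM in HFD and 28.8, 30.8, 22.2 and 32.4 in HFD + Inhib. Replicate 3 was the lowest of the treated libraries and was still above every HFD library. The log2 fold change was 0.79 (SE 0.11, adjusted p = 7.91e-05). With LFD libraries at 18.1, 16.9, 16.5 and 14.9 CPM and HFD + siRNA libraries at 17.0, 19.0, 19.2 and 16.4, only the HFD + Inhib group stood apart for this gene. Mrpl54 reached 13.2, 11.3, 12.4 and 10.7 CPM with the inhibitor (0.68, SE 0.14, adjusted p = 0.00261). Mrps33 reached 7.38, 6.45, 6.96 and 6.24 CPM (0.66, SE 0.13, adjusted p = 0.00238). Neither overlapped with HFD, where the highest libraries held 8.31 CPM of Mrpl54 and 4.85 CPM of Mrps33.

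Mrpl42, a mitochondria-specific protein, had 19.8, 13.9, 19.2 and 20.8 CPM in HFD and 27.1, 27.6, 27.0 and 26.3 in HFD + Inhib, with a narrow spread in the treated group (0.55, SE 0.12, adjusted p = 0.00431). Mrps18b is one of 3 paralogues of bacterial S18, and was counted here among the mitochondria-specific members. It had 22.2, 23.1, 24.4 and 17.9 CPM in HFD and 34.6, 36.0, 28.1 and 28.6 in HFD + Inhib (0.54, SE 0.11, adjusted p = 0.00228). All treated libraries were again above all HFD libraries. Leaving out HFD replicate 2 or HFD + Inhib replicate 2 took the total of 25 to 16, and these 5 members stayed past the threshold without any single library. After the GC and length correction 22 were higher and 0 lower, the 5 named members among them, and the median was 0.18.

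**Figure D2:**
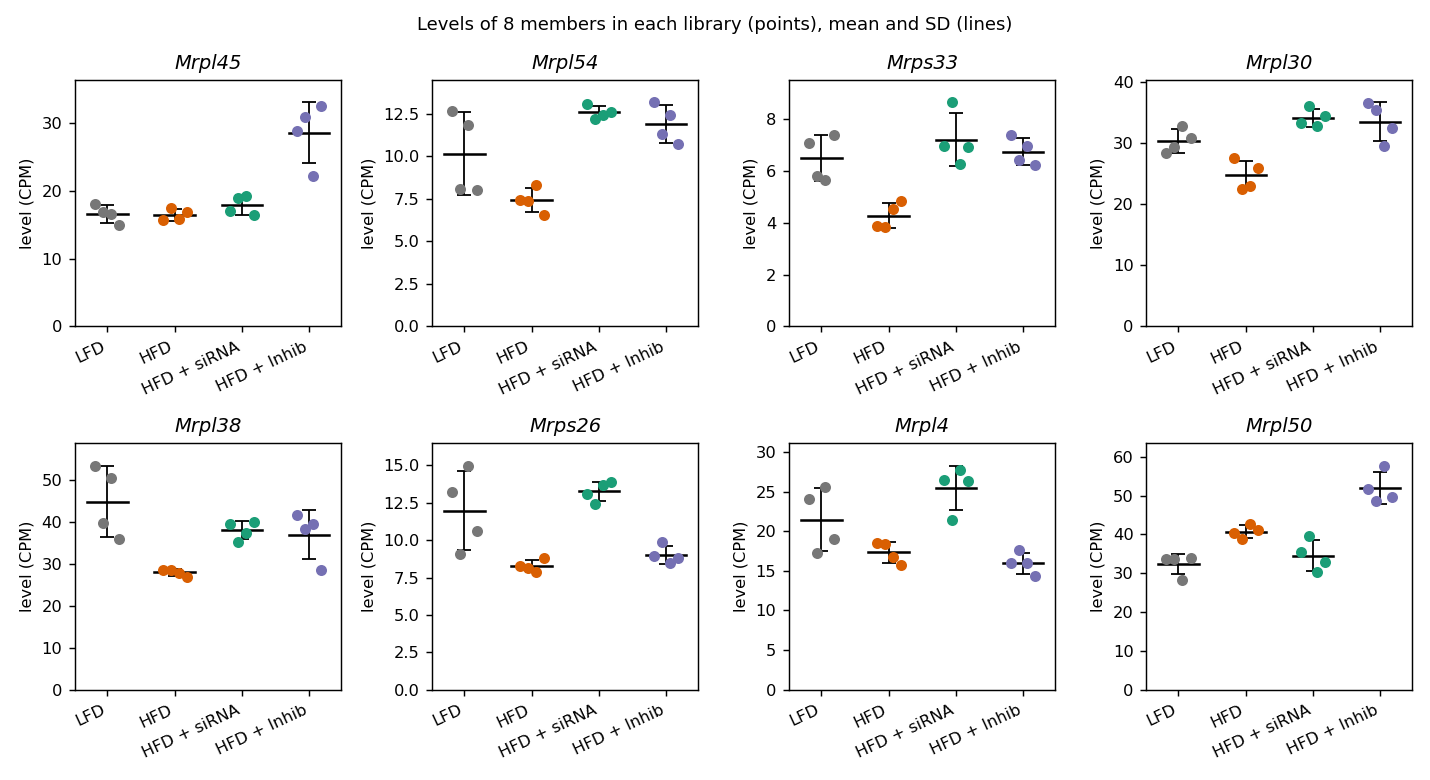
Level in CPM of 8 leading members in each library of the 4 groups. Points are libraries and bars are mean ± SD (n = 4). Mrpl45 stands apart in HFD + Inhib at 22.2 to 32.4 CPM, Mrps26 and Mrpl4 are higher in HFD + siRNA than in HFD or HFD + Inhib, and Mrps33 is lowest in HFD.

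Some members were changed in more than one of these comparisons, which share the HFD libraries, so the overlaps are given as counts only. Lower in HFD than in LFD and higher in both treated groups than in HFD were 4 members, Mrpl30, Mrpl38, Mrpl54 and Mrps33, named after their values were seen. Mrpl54 overlapped by diet, with 8.06 and 8.04 CPM in LFD replicates 2 and 4 beside an HFD maximum of 8.31. Its diet call was not kept in all of the 8 fits that left out a library. Mrpl30 had 28.5, 29.5, 32.9 and 30.9 CPM in LFD, 27.5, 22.5, 23.0 and 26.04 in HFD, 33.4, 36.2, 32.9 and 34.5 in HFD + siRNA, and 36.7, 35.5, 29.6 and 32.5 in HFD + Inhib. All its HFD libraries were below all others. Its log2 fold changes were -0.30 against LFD (SE 0.09, adjusted p = 0.027), 0.47 with siRNA (SE 0.09, adjusted p = 0.00378) and 0.44 with the inhibitor (SE 0.09, adjusted p = 0.00226), and the first was lost without LFD replicate 3, HFD replicate 2 or HFD replicate 3. Mrpl38 was at 39.6, 35.2, 37.4 and 39.996 CPM with siRNA and at 41.7, 38.2, 39.6 and 28.5 with the inhibitor, where replicate 4 lay within the HFD range. These rises, 0.44 (SE 0.13, adjusted p = 0.0326) and 0.40 (SE 0.13, adjusted p = 0.0361), were each called in 1 of 8 fits that left out a library, and the former was lost with the GC and length correction (0.29). Of the 78 members, 6 were higher in both treated groups than in HFD, and 30 were changed in none of the 6 comparisons. The same overlaps over all genes tested are not given here, so these counts stand without a background.

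**Figure D3:**
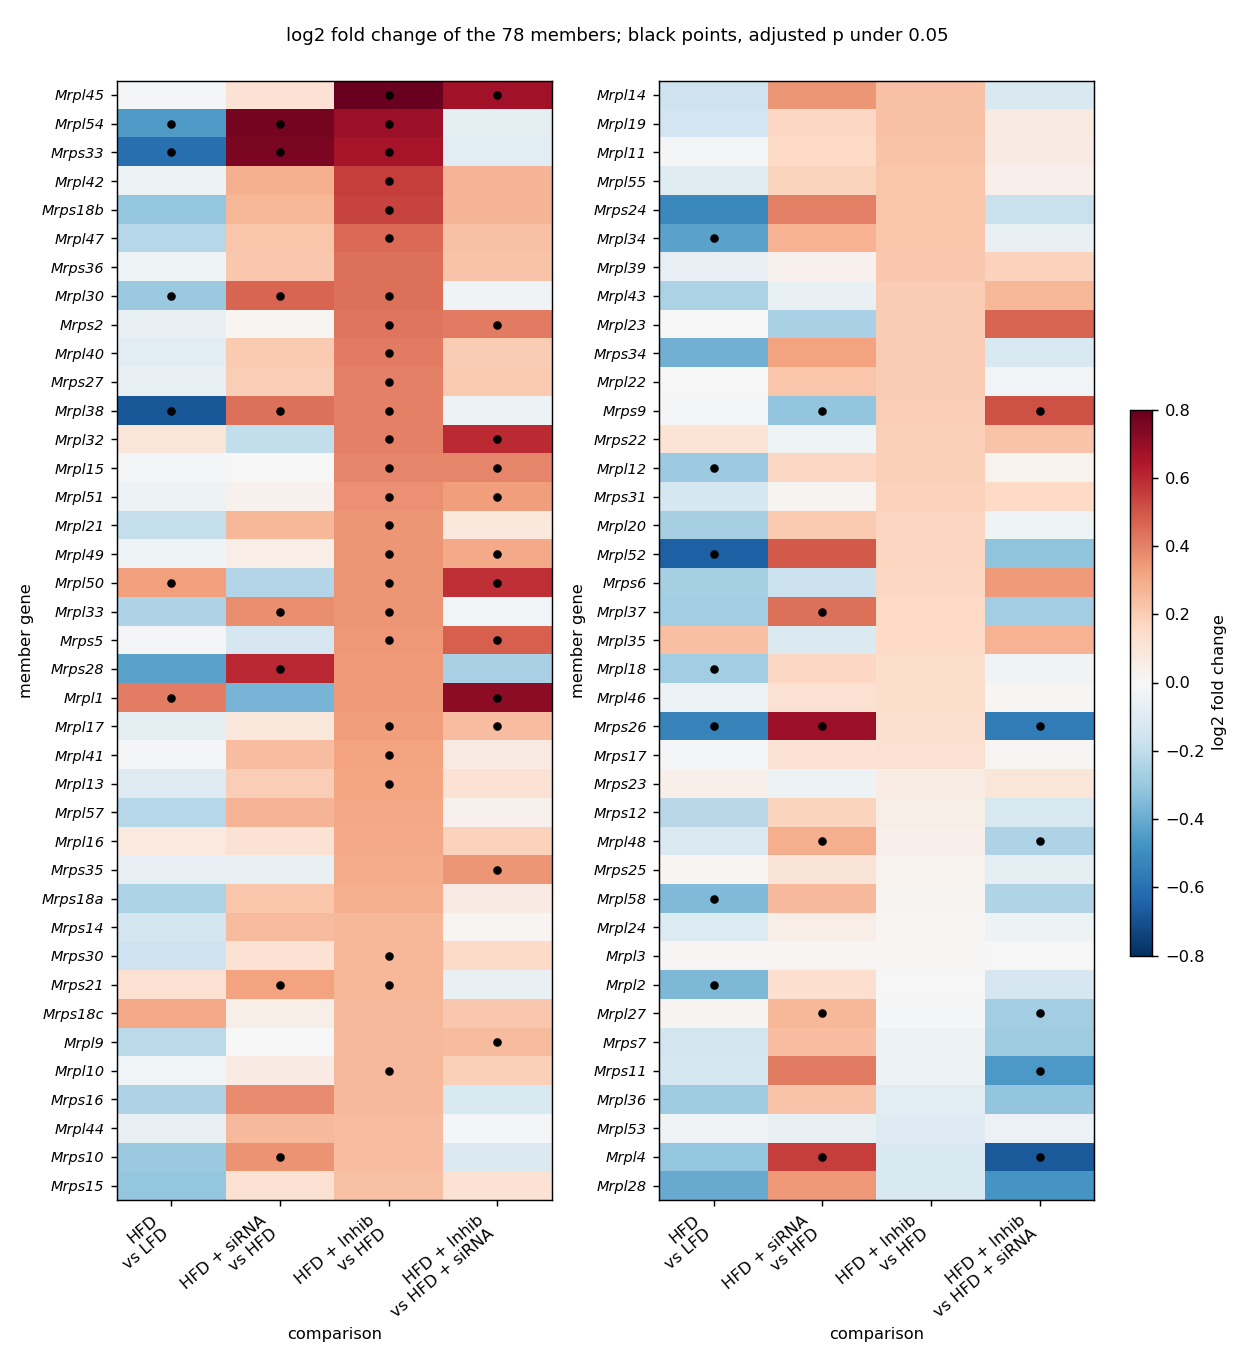
Log2 fold change of each of the 78 members (rows, in the order of their change in HFD + Inhib versus HFD, over both panels) in 4 comparisons (columns), with black points where the adjusted p was under 0.05. The HFD + Inhib versus HFD column holds 25 points, all on rises, and the HFD versus LFD column 13, of which 11 are on falls.

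The treatments were also compared with each other. In HFD + Inhib, 13 members were higher and 5 lower than in HFD + siRNA (16.7% and 6.41%), against a background of 17.3% and 16.6%, so the higher share was near that of all genes. Leaving out single libraries took the 5 lower members to 2 (without HFD + Inhib replicate 3), 3 (without any one of the HFD + siRNA replicates) or 7 (without HFD + Inhib replicate 2). The median was 0.04, against -0.04 for all genes. Mrpl1, a protein of the L1 stalk through which spent tRNA leaves, had 23.6, 20.8, 18.9 and 17.9 CPM with siRNA and 31.6, 34.8, 33.8 and 33.2 with the inhibitor. The groups were well apart (0.72, SE 0.13, adjusted p = 0.000458). Mrpl45 (0.67, adjusted p = 0.000191), Mrpl32 (0.60, adjusted p = 0.00244), Mrpl50 (0.59, adjusted p = 0.000162) and Mrps9 (0.51, adjusted p = 0.000489) were also higher with the inhibitor. Mrpl32, whose promoter holds 3 NRF1 matches, had 8.51, 8.89, 8.55 and 8.20 CPM with siRNA and 11.4, 12.1, 15.9 and 12.2 with the inhibitor, without overlap. After the GC and length correction its difference was 0.21 and no longer past the threshold.

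Lower with the inhibitor than with siRNA were Mrpl4 and Mrps26. Mrpl4 had 15.9, 17.6, 15.9 and 14.4 CPM with the inhibitor, all below the siRNA minimum of 21.4 (-0.67, SE 0.12, adjusted p = 0.000592). Mrps26 had 8.94, 9.91, 8.48 and 8.78 CPM, below the siRNA minimum of 12.5 (-0.56, SE 0.13, adjusted p = 0.00283). Both were higher with knockdown than in HFD, and neither passed the test with the inhibitor against HFD. Mrpl27, next to the peptidyl transferase centre, had 20.9, 22.9, 20.1 and 21.2 CPM with siRNA and 18.8, 18.5, 15.6 and 17.2 with the inhibitor (-0.28, SE 0.08, adjusted p = 0.0151). It was not called without HFD + siRNA replicate 2 or HFD + Inhib replicate 3. Mrpl48 differed by -0.25 (SE 0.09, adjusted p = 0.0398) and was called in 2 of 8 such fits, those without HFD + Inhib replicate 1 or 4. Mrps11, the remaining lower member, had overlapping libraries (-0.46, SE 0.15, adjusted p = 0.0261), and its call was lost without HFD + siRNA replicate 1, 3 or 4 or HFD + Inhib replicate 3 or 4.

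Both treated groups were also compared with the low-fat diet. In HFD + siRNA, 2 members were higher and 1 lower than in LFD (2.56% and 1.28%), against a background of 4.75% and 3.88%, and the total of 3 was 1 without LFD replicate 3 or HFD + siRNA replicate 2, 3 or 4. Mrps21, the most abundant member per kilobase, had 22.3, 21.0, 21.8 and 22.2 CPM in LFD, 23.2, 23.5, 25.04 and 23.3 in HFD, 27.0, 32.6, 28.1 and 31.1 in HFD + siRNA, and 27.5, 30.2, 30.4 and 26.1 in HFD + Inhib. Both treated groups were above both control groups. The difference of siRNA from LFD was 0.45 (SE 0.08, adjusted p = 0.00212). Its rise against HFD with siRNA, 0.32 (SE 0.08, adjusted p = 0.0144), was -0.08 after the GC and length correction, the one called member whose direction turned. The other members were Mrpl27 (0.29, adjusted p = 0.0371) and Mrps9 (-0.33, adjusted p = 0.0342), called in 1 and 3 of 8 fits that left out a library. The Mrps9 call was also lost with the replicate block.

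In HFD + Inhib, 21 members were higher and 5 lower than in LFD (26.9% and 6.41%), against a background of 18.8% and 18.2%, and the median was 0.10. Leaving out single libraries took the 5 lower members to 1 (without LFD replicate 3), 2 (without LFD replicate 1), 3 (without HFD + Inhib replicate 3 or 4) or 8 (without LFD replicate 2), and the higher ones to 16 to 20. Mrpl45 (0.78, adjusted p = 4.67e-05), Mrpl1 (0.75, adjusted p = 0.00028), Mrpl50 (0.68, adjusted p = 3.94e-05), Mrps18c (0.57, adjusted p = 0.00255) and Mrpl42 (0.51, adjusted p = 0.00369) rose furthest. Mrpl50 had 51.8, 48.5, 57.8 and 49.6 CPM with the inhibitor, above all libraries of the other groups. Mrpl2 (-0.36, adjusted p = 0.00466) and Mrpl58 (-0.33, adjusted p = 0.0259) were lower. Mrpl2 had 24.3, 25.5, 21.0 and 22.8 CPM with the inhibitor, below all LFD libraries, and within the range of 21.4 to 24.4 CPM in HFD but for replicates 2 and 3. With the GC and length correction, Mrpl42 (0.27) and Mrpl2 (-0.14) were no longer called, and Mrpl58 was not called without LFD replicate 1 or 3 or HFD + Inhib replicate 3 or 4. Of the 25 members higher in HFD + Inhib than in HFD, 15 were also higher than in LFD. Both comparisons share the HFD + Inhib libraries, and the same overlap over all genes tested is not given here.

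Members were also read by role. In the comparisons of HFD with LFD, HFD + siRNA with HFD and HFD + Inhib with HFD, the 51 large subunit genes gave 2 higher and 9 lower (3.92% and 17.6%), 8 and 0 (15.7% and 0%), and 19 and 0 (37.3% and 0%). The 26 small subunit genes gave 0 and 2 (0% and 7.69%), 5 and 1 (19.2% and 3.85%), and 6 and 0 (23.1% and 0%). Of all genes, 9.58% and 8.80%, 5.20% and 6.55%, and 9.80% and 8.42% were called. Leaving out single libraries gave, for the large subunit, totals of 3 (without LFD replicate 3) to 14 by diet, 3 (without HFD replicate 3 or HFD + siRNA replicate 4) to 6 with siRNA and 11 (without HFD + Inhib replicate 1 or 2) to 18 with the inhibitor. For the small subunit the totals were 2 to 6 (without LFD replicate 2), 3 to 5 and 4 to 8. With the GC and length correction the large subunit gave 0 higher and 5 lower by diet, 4 and 0 with siRNA, and 16 and 0 with the inhibitor, and the small subunit 1 and 2, 4 and 1, and 6 and 0. Median log2 fold changes were -0.11, 0.18 and 0.24 in the large subunit and -0.14, 0.19 and 0.23 in the small subunit. The 46 members with a bacterial counterpart had medians of -0.15, 0.17 and 0.23, and the 31 mitochondria-specific members -0.08, 0.21 and 0.26. Differences between these classes were not tested.

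Landmark members were read whatever their values. The stalk protein gene Mrpl12 had 71.7, 56.4, 65.9 and 54.2 CPM in LFD and 51.8, 50.7, 49.96 and 50.5 in HFD, without overlap (-0.29, SE 0.09, adjusted p = 0.0303), a call made in 2 of 8 fits that left out a library and lost with the GC and length correction (-0.12). Its stalk partner Mrpl10 rose with the inhibitor relative to HFD, from 28.5, 30.4, 26.3 and 26.7 CPM to 34.7, 37.5, 29.98 and 31.6, with one overlapping library (0.26, SE 0.08, adjusted p = 0.045). That call too was made in 2 of 8 such fits. Mrpl58, a peptidyl-tRNA hydrolase that rescues stalled ribosomes, had 20.9, 14.4, 17.9 and 14.8 CPM in LFD and 12.9, 13.999, 14.3 and 12.0 in HFD, just apart (-0.35, SE 0.11, adjusted p = 0.0349), called in 3 of 8. Mrps30, a protein of the large subunit despite its name, had 15.4, 15.3, 15.4 and 14.3 CPM in HFD and 18.4, 18.6, 17.5 and 18.2 in HFD + Inhib, without overlap (0.26, SE 0.08, adjusted p = 0.0268), also called in 2 of 8.

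Several landmarks did not pass the test in any of the 6 comparisons. They were Mrpl11, at the base of the stalk, Mrps12, at the decoding centre, Mrps7, Mrps34, Mrpl44 and Mrps18a. Mrpl11, for example, had group means of 14.3 ± 1.54 CPM in LFD, 14.2 ± 0.733 in HFD, 15.8 ± 1.04 in HFD + siRNA and 16.6 ± 1.399 with the inhibitor. Mrps22, in which mutations cause mitochondrial disease, was higher in HFD + Inhib than in LFD (0.30, SE 0.11, adjusted p = 0.0375). Its libraries held 13.6, 14.9, 11.2 and 13.3 CPM in LFD and 16.7, 16.7, 16.2 and 15.7 in HFD + Inhib, without overlap, and the call was made in 1 of 8 fits that left out a library and lost with the GC and length correction (0.03). Mrps36, the member outside the ribosome, differed in the same comparison alone (0.41, SE 0.16, adjusted p = 0.0478), also called in 1 of 8.

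Changes of the members were related to the GC content of their transcripts in most comparisons, as were those of all genes. Over 8232 genes, Spearman's rho between log2 fold change and GC content was -0.51 for HFD versus LFD, 0.48 for HFD + siRNA versus HFD, -0.27 for HFD + Inhib versus HFD, -0.52 for HFD + Inhib versus HFD + siRNA, -0.09 for HFD + siRNA versus LFD and -0.54 for HFD + Inhib versus LFD. Over the 78 members it was -0.49, 0.38, -0.34, -0.50, -0.15 and -0.55. These are descriptions across genes that share libraries, not independent replicates. Mrpl1 and Mrpl50, with GC contents of 41.4% and 42.3%, were high in HFD + Inhib, and Mrpl4, at 60.1%, was high in HFD + siRNA. Other leading members went against the trend, as Mrpl54 (60.4%) and Mrpl38 (59.6%) were higher with the inhibitor than in HFD and Mrps33 (44.2%) was higher with siRNA. In other comparisons the same genes went with it. Mrpl38 fell by diet, Mrpl54 and Mrpl38 rose with siRNA, and Mrps33 rose with the inhibitor. After the correction, 6 of 13, 8 of 14, 18 of 25, 13 of 18, 3 of 3 and 14 of 26 calls were kept in the same 6 comparisons. Mean log2 CPM over the members with that correction was 4.13 ± 0.10 in LFD, 4.04 ± 0.03 in HFD, 4.15 ± 0.03 in HFD + siRNA and 4.21 ± 0.06 with the inhibitor.

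**Figure D4:**
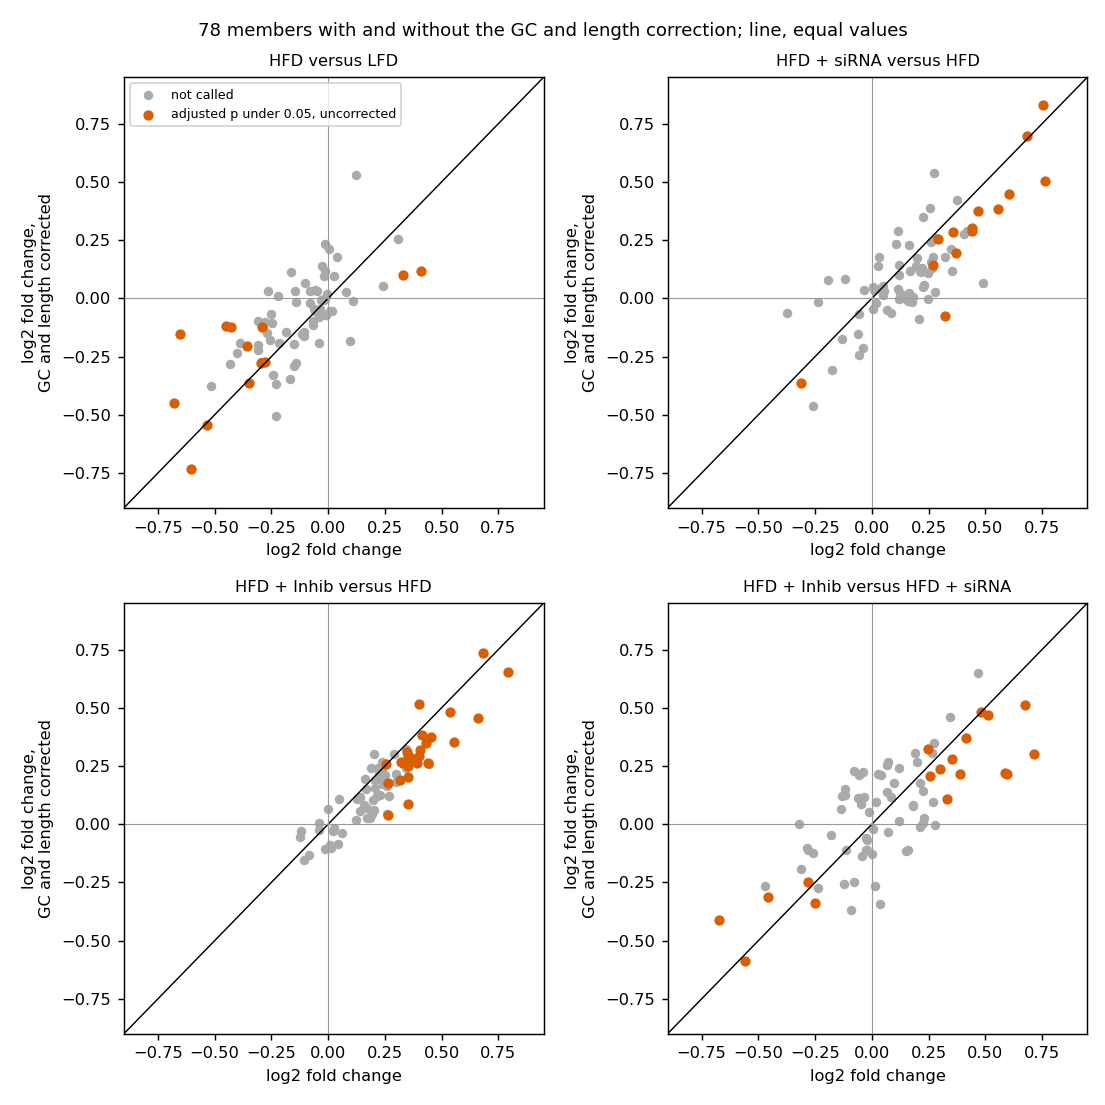
Log2 fold change of each member before (x axis) and after (y axis) a trend over GC and transcript length was removed from each library, in separate panels for the comparisons. Points are members and the diagonal marks equal values. The median with siRNA went from 0.19 to 0.10 and that with the inhibitor from 0.24 to 0.18.

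Shared sequence sets a limit on some members. Cut into words of 50 bases, the transcripts of 33 members shared none with another gene, and 12 shared more than 10%. Mrpl53 shared 82.0%, with the predicted gene Gm42688, and Mrps34 shared 34.2%. Among members that changed, Mrpl27 shared 22.3%, Mrps18c 19.2%, Mrps36 17.3%, Mrps18b 14.6%, Mrps33 13.3% and Mrpl41 11.3%. Opposite-strand genes covered over 30% of the exon bases of 5 members, among them Mrps25 (69.8%, opposite Nr2c2) and Mrps18b (30.5%). How strand was treated in counting was not given in the sources used here, so reads of these pairs may not be separated.

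The wider machinery of mitochondrial translation was described with lists of genes. Their shares are to be read against those of all genes, which were 9.58% higher and 8.80% lower by diet, 5.20% and 6.55% with siRNA and 9.80% and 8.42% with the inhibitor. Of 26 assembly factors, 1 was higher and 3 lower in HFD than in LFD, 3 and 0 in HFD + siRNA than in HFD, and 8 and 0 in HFD + Inhib than in HFD (30.8% and 0%). Mterf4, which targets the rRNA methyltransferase Nsun4 to the large subunit, had 8.45, 8.73, 9.03 and 9.81 CPM in HFD and 15.6, 15.1, 14.5 and 13.3 in HFD + Inhib (0.70, SE 0.09, adjusted p = 8.28e-05). Nsun4 had 15.3, 14.8, 15.7 and 13.5 CPM in LFD, 11.47, 10.2, 9.48 and 8.95 in HFD and 15.5, 14.96, 14.9 and 13.01 in HFD + Inhib. All HFD libraries were below both, with changes of -0.56 (SE 0.10, adjusted p = 0.00219) by diet and 0.54 (SE 0.10, adjusted p = 0.00171) with the inhibitor. Without single libraries there were 2 to 6 assembly factors by diet and 0 to 2 with siRNA, the latter 0 without HFD replicate 2, 3 or 4 or HFD + siRNA replicate 4. The 8 assembly factors higher with the inhibitor became 5 without HFD replicate 1, HFD replicate 4 or HFD + Inhib replicate 4, and 4 without HFD replicate 3 or HFD + Inhib replicate 1 or 2. Of 5 ribosome subunit genes with other names, Ptcd3 rose with the inhibitor relative to HFD (0.42, SE 0.10, adjusted p = 0.00743). The median of the 5 in that comparison was -0.04, with 2 above 0 and 3 below. Gadd45gip1 was lower in HFD than in LFD (-0.34, SE 0.11, adjusted p = 0.0374), with overlapping libraries and in 3 of 8 fits that left one out.

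Of 15 translation factors, 2 were higher and 1 lower by diet, 0 and 0 with siRNA, and 4 and 0 with the inhibitor (26.7% and 0%). For the siRNA comparison, edgeR gave 2 higher and 3 lower at an unadjusted p under 0.05, and DESeq2 0 and 1. The initiation factor gene Mtif2 rose with the inhibitor (0.40, SE 0.11, adjusted p = 0.0142; lost without HFD replicate 4), as did the elongation factor gene Gfm1 (0.27, SE 0.07, adjusted p = 0.0192), and the latter call was lost without HFD replicate 1 or 4 or HFD + Inhib replicate 1 or 2. The 3 translation factors called by diet became 1 without LFD replicate 1, LFD replicate 3 or HFD replicate 2, and the 0 with siRNA became 2 lower without HFD + siRNA replicate 2. The 4 called with the inhibitor became 1 without HFD replicate 4 or HFD + Inhib replicate 2, and 2 without HFD replicate 1 or HFD + Inhib replicate 1. Among 20 genes that charge mitochondrial tRNAs, the counts were 2 and 3 (10% and 15%), 2 and 1 (10% and 5%), and 3 and 0 (15% and 0%). Leaving out single libraries gave totals of 0 (without LFD replicate 3, HFD replicate 3 or HFD replicate 4) to 5 by diet and 1 to 2 with siRNA, and the GC and length correction gave 2 higher and 1 lower by diet. Gatb, of the complex that makes glutaminyl-tRNA, had 28.0, 28.8, 25.9 and 25.02 CPM in HFD and 45.7, 50.1, 34.9 and 42.2 in HFD + Inhib, well apart (0.68, SE 0.09, adjusted p = 9.49e-05).

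Genes that copy and transcribe mitochondrial DNA numbered 12, of which 0 were higher and 2 lower by diet, 0 and 1 with siRNA, and 3 and 0 with the inhibitor (25% and 0%). With single libraries left out there were 0 (without LFD replicate 1 or 3 or HFD replicate 4) to 2 by diet and 0 to 2 with siRNA, and the 3 became 1 without HFD + Inhib replicate 4. The GC and length correction left 1 lower by diet and 1 higher with the inhibitor. Tfb2m, a transcription factor of mitochondria, had 20.2, 17.9, 22.8 and 21.6 CPM in HFD and 31.2, 33.2, 29.0 and 30.3 in HFD + Inhib (0.58, SE 0.09, adjusted p = 0.00033). Tfam, which packages the DNA, rose by 0.34 (SE 0.09, adjusted p = 0.0167), a call lost with the GC and length correction (0.15) and without HFD + Inhib replicate 1 or 4. Among 9 regulators of mitochondrial biogenesis, 0 were higher and 2 lower by diet, 0 and 0 with siRNA, and 2 and 0 with the inhibitor. For siRNA, edgeR gave 0 higher and 2 lower at an unadjusted p under 0.05, and DESeq2 0 and 1. Nrf1 was lower in HFD than in LFD (-0.45, SE 0.09, adjusted p = 0.00267) and was at 13.1 ± 1.11 CPM with siRNA and 12.2 ± 0.486 with the inhibitor, close to the 12.4 ± 0.683 of HFD. Yy1 was also lower in HFD than in LFD (-0.25, SE 0.08, adjusted p = 0.0397), with overlapping libraries, a call made in 1 of 8 fits that left out a library and lost with the GC and length correction (-0.16). Gabpa, the DNA-binding part of GABP, was higher with the inhibitor than in HFD (0.36, SE 0.11, adjusted p = 0.0272), with overlapping libraries. Ppargc1a did not pass the test in any comparison, and Myc rose with the inhibitor (0.94, SE 0.31, adjusted p = 0.0441) from 2.22, 4.39, 3.95 and 2.62 CPM to 5.26, 10.2, 4.50 and 5.52. The Gabpa and Myc calls were made in 3 and 2 of 8 fits that left out a library. Of 24 import genes, which bring ribosomal proteins into mitochondria, 2 were higher and 4 lower by diet (8.33% and 16.7%), 2 and 2 with siRNA (8.33% each), and 8 and 0 with the inhibitor (33.3% and 0%), led by Timm10 (0.70, SE 0.12, adjusted p = 0.00059). The 6 import genes changed by diet were 10 without LFD replicate 2, 2 without HFD replicate 3, and 1 without LFD replicate 1, LFD replicate 3 or HFD replicate 4. The 4 changed with siRNA were 3 without HFD replicate 1 or HFD + siRNA replicate 2, and 2 without any other one of the HFD or HFD + siRNA libraries.

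By diet and with siRNA, the median change of the mRNAs that these ribosomes translate was opposite in sign to that of the ribosomal protein genes. Of the latter, 65 and 64 of 78 were not called, and the difference between the sets was not tested. Mitochondrially encoded mRNAs took 2.21%, 3.48%, 3.03% and 5.63% of counts in LFD, 6.78%, 5.65%, 10.4% and 7.70% in HFD, 3.80%, 3.85%, 3.60% and 3.42% in HFD + siRNA, and 7.89%, 8.62%, 12.4% and 8.87% in HFD + Inhib. HFD lay above LFD by a narrow gap (lowest HFD library 5.65%, highest LFD library 5.63%), and HFD + siRNA lay below HFD. Of 13 such mRNAs, 13 were higher in HFD than in LFD (median 1.07), 12 fell in HFD + siRNA relative to HFD (median -1.20), and 13 were higher in HFD + Inhib than in HFD + siRNA (median 1.61). By diet, 5 of the 13 called mRNAs had no overlap between libraries, and the 13 became 10 without LFD replicate 1. With siRNA, all 12 had no overlap, and the 12 became 7 without HFD replicate 3. For the inhibitor against HFD, 0 were called by edgeR and by DESeq2, 3 were higher at an unadjusted p under 0.05, and the median was 0.47. The 2 mitochondrial rRNAs, which form the core of these ribosomes, took 0.00720%, 0.0125%, 0.00445% and 0.147% of counts in LFD, 0.106%, 0.0895%, 0.0657% and 0.114% in HFD, 0.00957%, 0.0453%, 0.00529% and 0.00863% in HFD + siRNA, and 0.0990%, 0.110%, 0.0766% and 0.119% in HFD + Inhib. They were high in HFD and HFD + Inhib and low in HFD + siRNA, and LFD replicate 4, which also had the highest mRNA share of its group, stood far above the other LFD libraries. Without LFD replicate 4, 14 mitochondrial ribosomal protein genes in place of 13 and again 13 mitochondrially encoded mRNAs differed between HFD and LFD. How far these rRNA shares reflect library preparation or RNA quality was not tested. The mitochondrially encoded mRNAs share a genome and long precursor transcripts, and their part in the share left to nuclear genes was not tested.

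The 85 cytoplasmic ribosomal protein genes tested, of 89 listed, were set beside the mitochondrial members, with no test of the difference. In the comparisons of HFD with LFD and of each treatment with HFD, their median lay further from 0, with the same sign. Their summed level was 11788, 10290, 12827 and 10481 CPM in LFD, 7561, 6567, 6438 and 7344 in HFD, 9563, 11019, 9897 and 10201 in HFD + siRNA, and 9741, 9480, 8397 and 8748 in HFD + Inhib. All HFD libraries were below all others. Of the 85, 80 were lower in HFD than in LFD (median -0.71), 71 higher in HFD + siRNA than in HFD (0.55) and 45 higher in HFD + Inhib than in HFD (0.39). The order of the treatments therefore differed between the sets, the cytoplasmic median being higher with siRNA and the mitochondrial median, at 0.19 and 0.24, with the inhibitor. This difference in order was not tested. In comparisons not made with HFD the medians differed in sign. For HFD + siRNA versus LFD, however, the mitochondrial median was near 0 (0.04, against -0.13). It was -0.003 without LFD replicate 2. Of the cytoplasmic genes, 0 were higher and 40 lower in HFD + Inhib than in LFD (median -0.32, against 0.10 for the mitochondrial members), and 0 were higher and 14 lower in HFD + Inhib than in HFD + siRNA (median -0.16, against 0.04), where the shares of all genes were 18.8% and 18.2%, and 17.3% and 16.6%. Leaving out single libraries gave 23 (without LFD replicate 3) to 43 in place of the 40. In place of the 14 it gave 6 (without HFD + Inhib replicate 3 or 4), 7 (without HFD + siRNA replicate 3 or 4), 8 lower and 4 higher (without HFD + siRNA replicate 2), and up to 13.

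**Figure D5:**
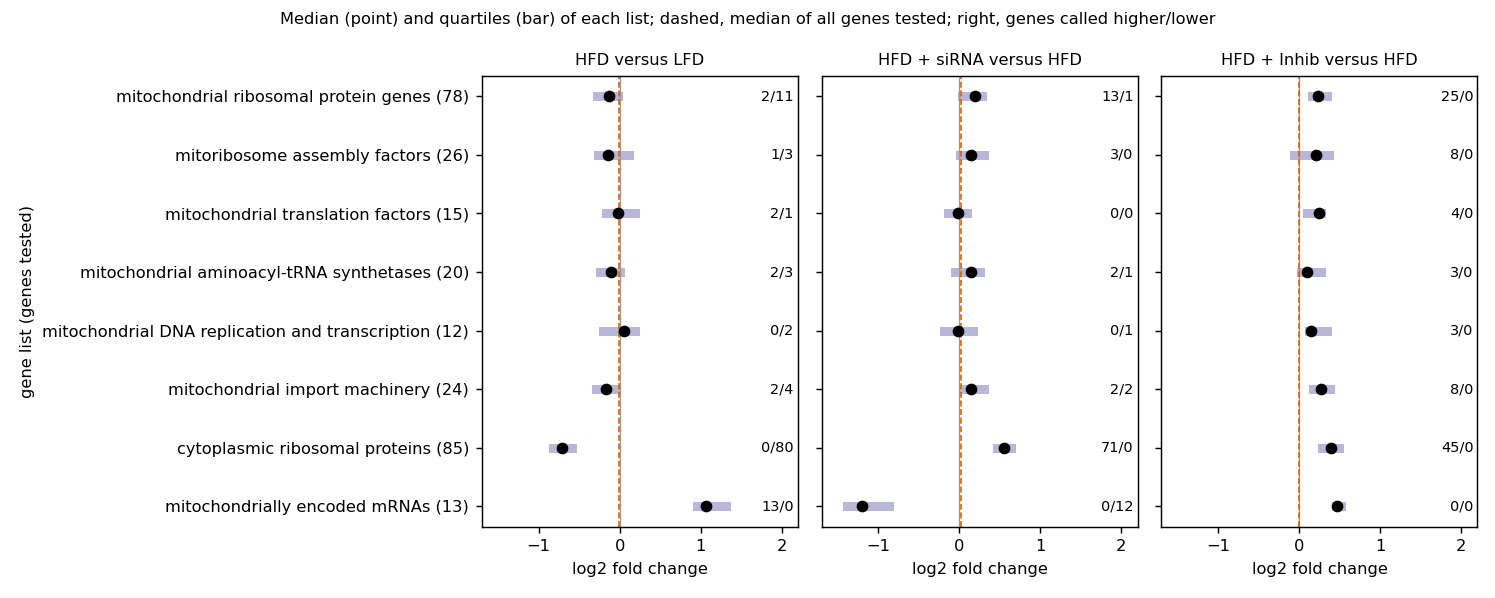
Median log2 fold change (points) and quartiles (lines) of 8 gene lists in 3 comparisons, with the numbers of genes higher and lower at an adjusted p under 0.05. Medians of cytoplasmic ribosomal proteins lie further from 0 than those of mitochondrial ones. Medians of the mitochondrially encoded mRNAs have the other sign by diet (1.07) and with siRNA (-1.20). These differences were not tested.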

How the data were processed

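Mouse liver RNA of 16 libraries, 4 in each group, was read from one table of genes. Per the submitters' processing notes, the authors used STAR and RSEM with build mm39, and the deposited values are RSEM expected counts per gene, of which 15.1% were not whole. The study's methods name HTG EdgeSeq, a targeted assay, while 33142 of the 50559 genes listed held counts. The sources differ, so which assay made the table is not settled by them. Libraries held 24317111 to 35820234 counts, which sets the precision of a value.

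Expected counts were rounded, filtered with filterByExpr (minimum count 10, minimum total 15) and tested with edgeR 4.0.16 (R 4.3.3, limma 3.58.1; TMM factors, glmQLFit and glmQLFTest, one fit of all 16 libraries) with Benjamini-Hochberg adjustment at 0.05. CPM uses TMM-scaled totals. DESeq2 1.42.0, other scalings, filters, a threshold of 0.01, a replicate block, single libraries left out, and offsets for GC content and length (a spline of 5 degrees of freedom per library, fitted to genes above a log2 CPM of 3) were alternatives. Lengths, GC content and shared sequence came from GENCODE M21 (GRCm38), which matched 86.5% of the genes tested, and promoters from RefSeq. Length and GC content of a gene were medians over its protein-coding transcripts, or over all its transcripts where it had none.

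The text names, per comparison, up to 5 rises and 5 falls with the largest change among called members without overlap, the 5 highest and 3 lowest members per kilobase, landmarks, and in other lists the smallest adjusted p. Members and lists were chosen with earlier results of these data known. The labels number the replicates, and nothing else ties them to separate animals, so p-values measure the spread between these libraries. Coordinates of genes on the build of the files were not used here.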

Additional observations from a re-analysis of the deposited data

Results flagged for a closer look

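For 59 genes and 5 summed measures described above, each group of 4 libraries was searched for a library far from the other 3 relative to the range of the group. Chance flags about 1 group in 20, and 22 of 256 groups were marked. No explanation was tested for any of them.

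Among the members, the libraries that stood apart in HFD + siRNA were replicate 3 for Mrpl2 (25.01 CPM, others 25.8 to 25.9), replicate 2 for Mrpl12 (52.7, others 58.2 to 58.4), replicate 4 for Mrpl11 (14.3, others 16.2 to 16.4) and replicate 2 for Mrpl47 (6.77, others 5.07 to 5.22). In LFD they were replicate 3 for Mrpl50 (28.3 CPM, others 33.7 to 33.8) and replicate 2 for Mrps36 (4.16, others 6.62 to 6.96). HFD libraries that stood apart were replicate 3 for Mrps21 (25.04 CPM, others 23.2 to 23.5), replicate 4 for Mrps12 (15.7, others 17.8 to 18.03) and replicate 4 for Mrps30 (14.3, others 15.3 to 15.4). In HFD + Inhib, replicate 3 had 15.9 CPM of Mrpl32 (others 11.4 to 12.2).

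Among other genes, Mterf4 had 10.4 CPM in LFD replicate 4 (others 8.42 to 8.76) and Timm10 had 7.51 CPM in HFD replicate 4 (others 6.69 to 6.83). Nrf1 was high in LFD replicate 1 (19.3 CPM, others 15.99 to 16.4) and in HFD replicate 1 (13.4 CPM, others 12.0 to 12.1), and Myc in HFD + siRNA replicate 2 (4.70 CPM, others 2.31 to 2.69). The mitochondrially encoded ND3 and ND1 were both high in HFD + Inhib replicate 3, at 1681 CPM (others 1318 to 1352) and 9243 CPM (others 5549 to 5994). Alb was high in LFD replicate 1 (67426 CPM, others 52975 to 55440) and low in HFD replicate 2 (42757 CPM, others 52893 to 54190). The summed hepatocyte markers were low in the same HFD replicate 2 (56881 CPM, others 69064 to 71447). Mitochondrial rRNAs took 0.147% of counts in LFD replicate 4 (others 0.00445% to 0.0125%) and 0.0453% in HFD + siRNA replicate 2 (others 0.00529% to 0.00957%).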

How the results depend on the processing

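Of 99 called pairs of a member and a comparison, 98 kept their direction and their call with DESeq2, 96 with RLE size factors, 92 with upper-quartile scaling, 92 with the replicate block, 73 in fits of only the 2 groups compared, 69 with no filter, 62 with the GC and length correction and 45 at an adjusted p under 0.01. Mrps21 in HFD + siRNA versus HFD alone turned in direction, to -0.0757 with the GC and length correction and to -0.0650 with that correction and the replicate block. Over fits that left out a library, 575 of 792 pairs kept their call, 217 lost it and 0 turned.

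Counts of called members moved by more than 1.5 times in these cases. HFD versus LFD gave 13, and 7 with no filter, 8 with the GC and length correction, 6 in the fit of the 2 groups and 4 at an adjusted p under 0.01. HFD + siRNA versus HFD gave 14, and 8 with no filter, 9 with the GC and length correction and 5 under 0.01. At 0.01, HFD + Inhib versus HFD gave 11 in place of 25, HFD + Inhib versus HFD + siRNA 10 in place of 18, and HFD + Inhib versus LFD 14 in place of 26. HFD + siRNA versus LFD gave 3, and 1 with no filter, 7 with the GC and length correction, 7 with that correction and the block, 1 in the fit of the 2 groups and 1 under 0.01. Leaving out each library in turn gave 5 to 20 for HFD versus LFD, 6 to 11 for HFD + siRNA versus HFD, 16 to 26 for HFD + Inhib versus HFD, 13 to 20 for HFD + Inhib versus HFD + siRNA, 1 to 4 for HFD + siRNA versus LFD and 19 to 24 for HFD + Inhib versus LFD. The counts at 0.01 use the same fit with a stricter threshold, and the cause of the other moves was not tested.

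Replicate numbers recur in every group. For each gene, the mean log2 CPM of the group was subtracted, and what remained was correlated between libraries of different groups. On these remainders, same-numbered libraries correlated from -0.132 to 0.336 (24 pairs, median 0.0677, against -0.0171 for other pairs). For 9 of 16 libraries, the mean correlation was highest with libraries of their own number. These values are a hint from the data of something shared by number, though the count to be had by chance was not worked out. The labels name no shared batch and not every pair correlated, so the numbers were not used as pairs, and a batch behind them was not tested. With the replicate block, the counts in the order above were 12, 11, 26, 18, 2 and 26. The least abundant member by CPM, Mrpl23, held at least 79 counts in each library. How far low counts limit what can be seen for such members was not tested.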
